A study of Sus scrofa with 4 samples.

Results

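Cytokine, innate immune and NF-kB genes form a group of signalling genes made up of ligands, their receptors, the JAK-STAT and NF-kB proteins that carry the signal into the nucleus, and the proteins that damp it. Members were chosen by the spelling of their gene symbols, which took in interleukins, chemokines and their receptors, Toll-like receptors, interferons and interferon regulatory factors, the TNF family, NF-kB, JAK, STAT, SOCS, FOS and JUN genes, prostaglandin genes and the swine leukocyte antigens. The rule took in 191 of the 4381 gene symbols in the count table, and 4 of these, TNFAIP6, TNFAIP8 and TNFAIP8L2 among them, match it by spelling more than by a settled role in immune signalling. Transcript levels were measured by RNA sequencing of porcine M II oocytes, which rest in the metaphase arrest in which an oocyte waits for fertilization, in 2 libraries from control oocytes and 2 libraries from SIRT6-inhibited oocytes. Both groups were matured in vitro for 42 to 44 h, the SIRT6-inhibited oocytes in medium with SIRT6-IN-1 at 100 μM, a compound that enters cells and inhibits the deacylase SIRT6, and the control oocytes without it. The study's methods give 100 oocytes per group and do not give the number in each library. Counts on the listed genes added up to 4646129 in control library 1, 3405960 in control library 2, 3239200 in SIRT6-inhibited library 1 and 4972602 in SIRT6-inhibited library 2. All values below are in that library order unless a sentence says otherwise.

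The oocyte label was checked against 19 marker genes, of which 14 were listed, and each of these 14 was counted and tested. Their summed level was 91970 and 92440 normalized CPM (counts relative to the TMM-scaled library total) in control oocytes and 95880 and 98260 in SIRT6-inhibited oocytes, led by WEE2, an oocyte kinase that holds meiosis. Of the 14, 8 had lower and 6 higher fitted levels in SIRT6-inhibited oocytes, and 3 passed the unadjusted threshold of 0.05 in edgeR, GDF9 and ZP2 lower and WEE2 higher, of which WEE2 also passed adjustment in DESeq2. Over all tested genes these shares were 9.05% in edgeR and 1.55% after adjustment in DESeq2. Leukocyte markers, which would accompany immune genes from immune cells, were at 0 counts in every library for 12 of 14 listed genes, among them CD3D, CD3E, CD14, CD74 and LYZ. The leukocyte list summed to 15.76, 10.13, 18.64 and 14.16 normalized CPM in the 4 libraries. Endothelial and blood markers were at 0 for 3 of 4 listed genes, and their sum of 14.9, 31.25, 23.92 and 19.37 normalized CPM came from PECAM1.

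Cytokines bind receptors that activate JAK kinases, which phosphorylate STAT transcription factors, and SOCS proteins made in response switch the receptor off. Toll-like, interleukin and TNF receptors act through adaptors and the IKK kinases, which free NF-kB dimers such as p50 and RelA from their IkB inhibitors, while FOS and JUN pair to form the factor AP-1. A fully grown oocyte makes little new RNA, so an M II library holds mainly transcripts stored during growth, and cumulus cells around the oocyte use prostaglandin and cytokine signals during their expansion.

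Most members were silent. Of the 191 members, 103 (53.9%) had 0 counts in all 4 libraries, against 1458 of all 4381 symbols (33.3%) and 32.3% of the symbols outside the group. A further 32 members were counted at trace level, too low to be tested, and 56 members (29.3%, against 54.5% of all symbols) were counted and tested. At least 10 counts in every library were reached by 37 members (19.4%, against 42% of all symbols). A count of 0 is a limit and not an absence, since 3 counts, the smallest number told from 0 here, correspond to 0.646, 0.881, 0.926 and 0.603 CPM in the 4 libraries. These limits hold for counting error alone, since amplified reads do not stand for separate molecules and are not independent. Leaving out control library 2 raised the silent share to 60.2%.

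Silence was uneven across roles. Among ligands, 26 of 36 interferons, 17 of 26 chemokines, 15 of 22 interleukins and 7 of 9 TNF superfamily ligands were silent. Among receptors, 6 of 19 for interleukins or interferons, 5 of 10 for chemokines or complement and 2 of 4 of the TNF superfamily were silent. In contrast, 1 of 9 JAK or STAT genes was silent, as were 2 of 7 interferon regulatory factors and 5 of 11 Toll-like receptors and adaptors. None of the 7 SOCS genes, 7 NF-kB subunits or regulators and 3 AP-1 subunits was at 0 in every library. The intracellular proteins of these pathways were thus silent in smaller shares than their ligands.

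**Figure D1:**
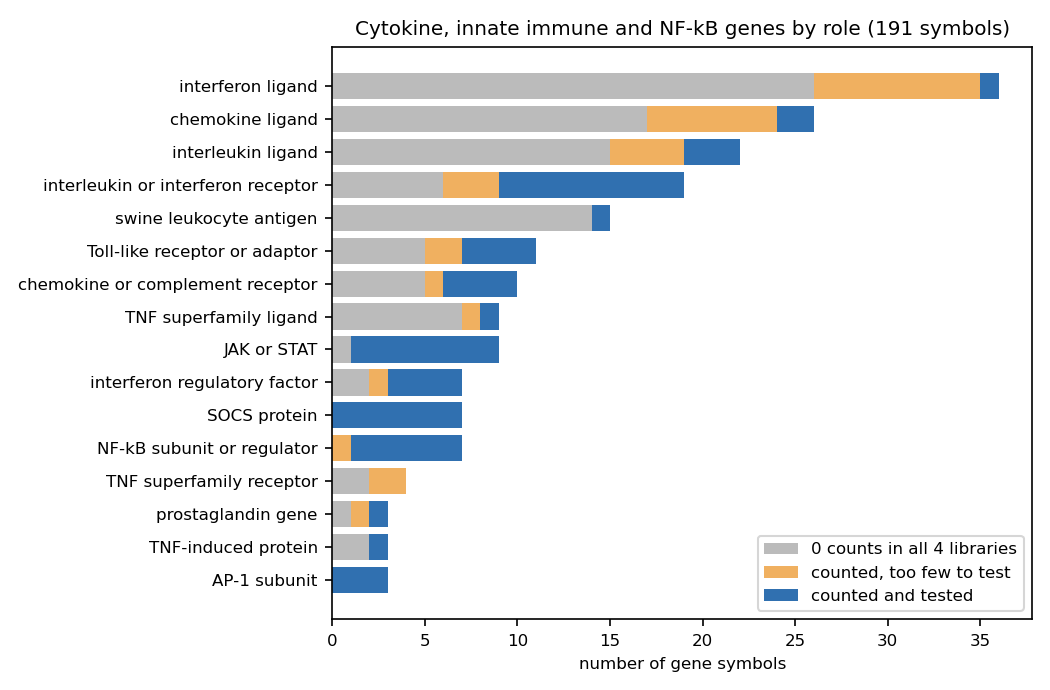
Number of member symbols in each role (horizontal axis), split into those with 0 counts in all 4 libraries (grey), those counted but too low to test (orange) and those tested (blue). Ligand and swine leukocyte antigen bars are mostly grey, while the JAK or STAT bar has 8 of 9 symbols in blue and the SOCS bar has 7 of 7.

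The silent interleukins included the inflammatory IL1A, IL1B, IL6, IL17A and IL18, the T cell cytokines IL2, IL4, IL5 and IL21, and IL7, IL12A, IL15, IL16, IL27 and the second porcine IL1B gene IL1B2. Silent chemokines were CCL1, CCL3L1, CCL8, CCL11, CCL14, CCL19, CCL20, CCL21, CCL24, CCL26, CCL27, CCL28, CXCL2, CXCL8, CXCL9, CXCL11 and CXCL14. TNF itself was silent, as were TNFSF4, TNFSF8, TNFSF10, TNFSF13B, TNFSF14 and TNFSF15. Silent receptors were CCR2, CCR3, CCR7, CCR9, CCR10, TNFRSF9, TNFRSF12A, IFNAR2, IL6R, IL7R, IL12RB1, IL13RA2 and IL23R. Apart from interferons and swine leukocyte antigens, the other silent members were TLR2, TLR3, TLR4, TLR5 and TLR9, the factors IRF4, IRF7 and STAT4, the prostaglandin E synthase PTGES, and TNFAIP6 and TNFAIP8L2.

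Interferon ligands lie together in the pig genome. RefSeq places 32 of the member interferon genes in a cluster on chromosome 1 between positions 201219848 and 201851495 of Sscrofa11.1, and 24 of these were silent and 8 at trace level. Summed over the cluster, there were 54 and 30 counts in control oocytes and 8 and 63 counts in SIRT6-inhibited oocytes, with IFN-OMEGA-3 reaching 41 counts in SIRT6-inhibited library 2. The groups overlapped in this sum. IFNB1, IFNE, IFNK and the type III interferon IL29 were silent, and IFNG, the type II interferon, had 8, 0, 0 and 0 counts. Many genes of the cluster are near-identical copies, so the assignment of reads to any of them, and its counts of 0, are uncertain.

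Swine leukocyte antigens, the pig's major histocompatibility genes, were silent for 14 of 15 symbols, including the classical class I genes SLA-1, SLA-2 and SLA-3 and all listed class II genes. SLA-6, a non-classical class I gene, had 515 and 182 counts in control oocytes and 328 and 458 counts in SIRT6-inhibited oocytes. Its normalized CPM of 111, 51.2, 102 and 95.4 put both SIRT6-inhibited libraries between the control libraries, and the log2 fold change was 0.28 (0.41 standard error, SE below; edgeR adjusted p = 0.977). SLA class I genes also resemble each other in sequence, so the split of reads between SLA-6 and its silent relatives is uncertain.

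The number of members detected differed between libraries. Of the 191 members, 65 and 73 were detected in control oocytes, and 54 and 57 in SIRT6-inhibited oocytes. The share at 0 was 66.0% and 61.8% in control oocytes and 71.7% and 70.2% in SIRT6-inhibited oocytes. All symbols had 45.0% and 38.6% at 0 in control oocytes and 48.0% and 47.0% in SIRT6-inhibited oocytes, so the same order of groups appeared across the whole table. SIRT6-inhibited library 1, with the fewest members detected, also had the lowest total, while control library 2, with the most, had the next lowest, and the part of depth was not tested. Of the 32 trace members, 22 were counted in a lone library, 7 of them in control library 1, 12 in control library 2, 2 in SIRT6-inhibited library 1 and 1 in SIRT6-inhibited library 2. Counts of trace members ran from 0 to 41 in any library.

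Members together took 0.726% and 0.797% of the counts in control oocytes and 0.742% and 0.787% in SIRT6-inhibited oocytes, and the groups overlapped. STAT3, JAK1, TNFSF12, SOCS1, IL12B and TNFAIP8 made up 72.1%, 67.4%, 74.3% and 75.8% of all member counts. These shares are of reads and are not corrected for transcript length, so they do not rank the genes by number of molecules.

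STAT3, the transcription factor downstream of IL-6 family and leukaemia inhibitory factor signals, took 32.3% and 31.5% of member counts in control oocytes and 34.7% and 36.5% in SIRT6-inhibited oocytes. It had 10904 and 8544 counts in control oocytes and 8354 and 14310 counts in SIRT6-inhibited oocytes. Its normalized CPM was 2354 and 2405 in control oocytes and 2595 and 2980 in SIRT6-inhibited oocytes. Both SIRT6-inhibited libraries lay above both control libraries, with a log2 fold change of 0.23 (SE 0.11, edgeR adjusted p = 0.598), which was 0.12 without SIRT6-inhibited library 2. Its kinase partner JAK1 had 3982 and 3241 counts in control oocytes and 3001 and 5487 in SIRT6-inhibited oocytes, and after normalization its SIRT6-inhibited libraries also lay above the controls. IL6ST, the gp130 subunit shared by receptors of this family, had 196 and 136 counts in control oocytes and 193 and 120 in SIRT6-inhibited oocytes. IL6ST stood at 42.3, 38.3, 59.96 and 25.0 normalized CPM, so the SIRT6-inhibited libraries lay on both sides of the controls (log2 fold change 0.07, SE 0.56, edgeR adjusted p = 0.992). IL6 and its receptor IL6R were silent, while LIF, another ligand of this family from a list of cytokine receptor partners, stood at 58.9 and 69.3 normalized CPM in control oocytes and 42.9 and 52.3 in SIRT6-inhibited oocytes.

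The other JAK and STAT genes were counted at lower numbers. STAT2, a mediator of type I interferon signals, had 218, 189, 90 and 201 counts. Both STAT2 values of SIRT6-inhibited oocytes were below the controls after normalization. STAT5B, which acts below growth hormone and prolactin receptors, had 571, 469, 446 and 675 counts, and its relative STAT5A had 15, 84, 67 and 40. The spans of STAT5A and STAT5B overlap in RefSeq and the strand setting of the counting is not stated, so reads in the overlap cannot be told apart. JAK2 had 0, 21, 34 and 37 counts, and STAT6, the factor for IL-4 and IL-13, had 8, 4, 30 and 14. Both SIRT6-inhibited libraries lay above both controls for STAT5B, JAK2 and STAT6 after normalization. With STAT3 and JAK1, the groups did not overlap for 5 higher genes of this role, and for 1 lower gene. Over all tested genes these shares were 17.9% higher and 22.2% lower, and the difference from them was not tested. Of the 8 tested JAK and STAT genes, 6 had a positive and 2 a negative log2 fold change, and the number at an unadjusted p-value under 0.05 was 0 in edgeR, 1 in DESeq2 and 1 in limma-voom, STAT3 in both, where 9.93% and 9.68% of all tested genes had such a p-value.

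All 7 SOCS genes were counted and tested. SOCS1, an inhibitor of JAK kinases induced by interferons, had 1713 and 1566 counts in control oocytes and 2030 and 2714 counts in SIRT6-inhibited oocytes. Its normalized CPM was 370 and 441 in control oocytes and 631 and 565 in SIRT6-inhibited oocytes. Both SIRT6-inhibited libraries lay above both controls, with a log2 fold change of 0.56 (SE 0.16, edgeR adjusted p = 0.460). SOCS1 lies on chromosome 3 from 31879143 to 31883041 in RefSeq, with no overlapping gene. SOCS7 was on the opposite side, with 458 and 493 counts in control oocytes and 270 and 293 counts in SIRT6-inhibited oocytes and both SIRT6-inhibited libraries below the controls after normalization (log2 fold change -0.71, SE 0.33, edgeR adjusted p = 0.570), and in limma-voom it had an unadjusted p-value under 0.05. SOCS6 had 138, 110, 85 and 56 counts and was also lower in both SIRT6-inhibited libraries. SOCS2, which restrains growth hormone signalling, had 64, 13, 29 and 90 counts. SOCS4 had 181, 298, 214 and 198 counts, and SOCS5 had 128, 108, 97 and 136. SOCS3, the classical inhibitor of STAT3 signalling, had 42, 0, 0 and 26 counts, so it was at 0 in a library of each group. The groups overlapped for SOCS2, SOCS3, SOCS4 and SOCS5, and 4 SOCS genes had a negative and 3 a positive log2 fold change, which became 5 and 2 with library totals in place of TMM because SOCS5 turned negative.

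Of the 7 interferon regulatory factors, 4 were tested. IRF8, a factor known from myeloid cells, had 910, 837, 827 and 951 counts. At 196, 236, 257 and 198 normalized CPM its groups overlapped, with a log2 fold change of 0.07 (SE 0.22, edgeR adjusted p = 0.989). IRF1, an activator of interferon-induced genes, had 810, 542, 542 and 965 counts, with overlapping groups. IRF9, which joins STAT2 in the factor formed after type I interferon, had 4, 5, 13 and 20 counts and was higher in both SIRT6-inhibited libraries. IL28B, a type III interferon and the tested interferon ligand, had 321 and 299 counts in control oocytes and 271 and 566 counts in SIRT6-inhibited oocytes. Its normalized CPM was 69.3 and 84.17 in control oocytes and 84.20 and 118 in SIRT6-inhibited oocytes. The lower SIRT6-inhibited library was level with the higher control library, and the log2 fold change was 0.40 (SE 0.32, edgeR adjusted p = 0.874). It was 0.26 without control library 1, 0.13 without SIRT6-inhibited library 2 and 0.62 without SIRT6-inhibited library 1.

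Among cytokine ligands, IL12B and TNFSF12 carried most of the counts. IL12B, the p40 subunit shared by IL-12 and IL-23, had 2056 and 1181 counts in control oocytes and 1272 and 1883 counts in SIRT6-inhibited oocytes, or 444, 332, 395 and 392 normalized CPM. Both SIRT6-inhibited libraries lay between the controls, with a log2 fold change of 0.02 (SE 0.19, edgeR adjusted p = 0.992). Its partner subunits had few counts, with IL12A silent and IL23A at 0, 6, 0 and 0. TNFSF12, the ligand TWEAK, had 3794 and 2191 counts in control oocytes and 2094 and 3856 counts in SIRT6-inhibited oocytes, while the gene of its receptor, TNFRSF12A, was silent. At 819, 617, 651 and 803 normalized CPM its groups overlapped (log2 fold change 0.02, SE 0.18, edgeR adjusted p = 0.993). IL34, a ligand of the CSF1 receptor, had 198, 93, 55 and 87 counts and was lower in both SIRT6-inhibited libraries after normalization, and its span overlaps that of MTSS1L. IL13 had 21, 0, 0 and 16 counts, and its span overlaps KIF3A. With library totals in place of TMM, the log2 fold changes of IL12B and TNFSF12 turned to -0.03 and -0.04.

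**Figure D2:**
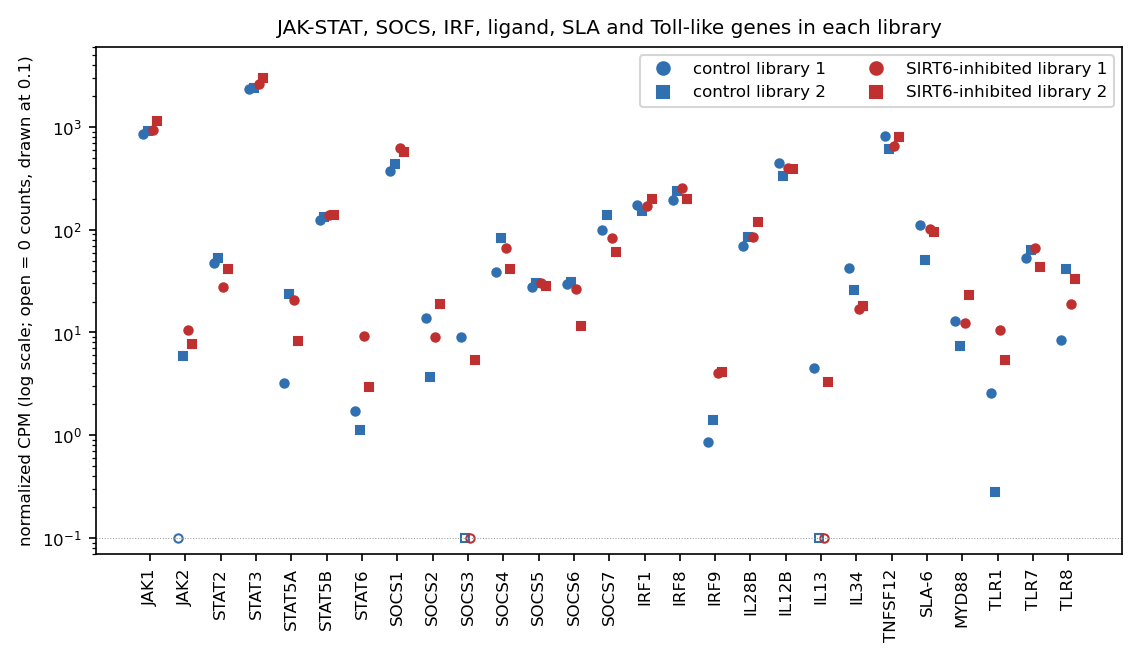
Normalized CPM (log scale) of the JAK or STAT, SOCS, interferon regulatory, ligand, SLA and Toll-like genes reported here in control library 1 (blue circle) and 2 (blue square) and SIRT6-inhibited library 1 (red circle) and 2 (red square), with open symbols at 0.1 for 0 counts. Both red symbols of SOCS1 (565 and 631) lie above both blue symbols (370 and 441), and IL12B and TNFSF12 overlap.

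Members with a test were divided evenly between the directions. Of the 56, 28 had lower and 28 had higher fitted levels in SIRT6-inhibited oocytes, and with library totals in place of TMM the split was 32 and 24. The median log2 fold change was -0.03, against -0.04 over all 2387 tested genes, and both were the same with genes at 0 in a whole group set to their bound. In the quasi-likelihood test of edgeR, an unadjusted p-value under 0.05 was reached by 4 members that were lower in SIRT6-inhibited oocytes (NFKB1, FOS, JUN and TNFAIP8), where 5.99% of all tested genes were called lower, and by 1 higher member (SOCS1), where 3.06% of all tested genes were called higher. Together the 5 were 8.93% of the tested members, close to the 9.05% of all tested genes. After Benjamini-Hochberg adjustment over all tested genes, 0 members passed 0.05 in edgeR, as did 0% of all tested genes, with 1 member passing in DESeq2 (FOS, 1.79% of tested members against 1.55% of all tested genes) and 0 in limma-voom. Groups did not overlap for 13 members that were lower in both SIRT6-inhibited libraries (23.2%, against 22.2% of all tested genes) and for 9 that were higher (16.1%, against 17.9%). FOS, NFKBIZ and PTGS2 passed the filter on low counts only through the control libraries. Shares that include them carry that selection, and the DESeq2 share is FOS alone. Of the 37 members that reached 10 counts in all 4 libraries, 10.8% were called in edgeR, against 9.51% of all symbols that did so. Their groups did not overlap for 24.3% lower and 13.5% higher, against 21.2% and 20.6%. The called and lower shares were thus near those of all such symbols, the higher share less so, and no difference was tested.

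The p-values measure only the spread between these samples, which may be technical, because nothing says that the libraries came from separate cultures or animals. With 2 libraries in each group, no exact permutation p-value can be smaller than 0.333, and none was computed. The 5 members depended on the libraries, with NFKB1 and FOS keeping an unadjusted p-value under 0.05 without control library 1 and SOCS1 without control library 2, while 7 members had such a p-value without SIRT6-inhibited library 1 and 4 without SIRT6-inhibited library 2. The member median was -0.23 without SIRT6-inhibited library 2, against -0.08 over all tested genes, and -0.39 without a filter on low counts, against -0.10, so its closeness to the whole table did not hold under these alternatives.

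**Figure D3:**
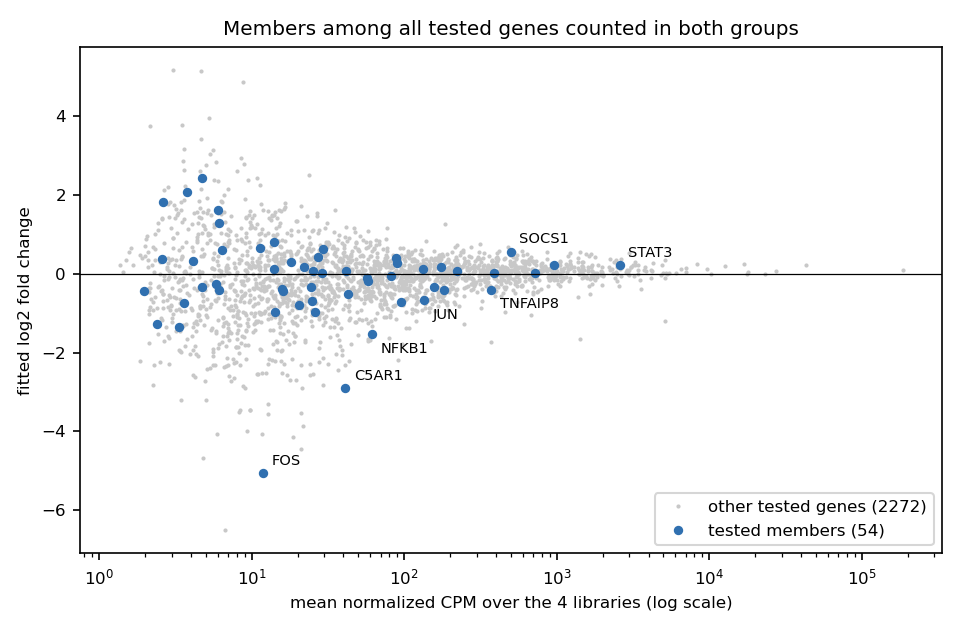
Fitted log2 fold change of SIRT6-inhibited against control oocytes (vertical axis) against the mean normalized CPM of the 4 libraries (horizontal axis, log scale) for the 2326 tested genes counted in both groups, with 54 members in blue and 2272 other genes in grey. Members spread to both sides of 0 among the other genes, and FOS, at -5.06, is the lowest member.

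Of the 7 NF-kB subunits and regulators, 6 were tested. NFKB1 encodes p105, the precursor of the p50 subunit, and lies on chromosome 8 from 118391010 to 118478927 in RefSeq with no overlapping gene. It had 339 and 390 counts in control oocytes and 118 and 129 counts in SIRT6-inhibited oocytes. Normalized CPM was 73.2 and 110 (mean 91.5, SD 25.9, n = 2) in control oocytes and 36.7 and 26.9 (mean 31.8, SD 6.93, n = 2) in SIRT6-inhibited oocytes. Both SIRT6-inhibited libraries lay below both controls, and the log2 fold change was -1.53 (SE 0.40, edgeR adjusted p = 0.460). Leaving out control library 2 gave -1.21 and no unadjusted p-value under 0.05, and leaving out SIRT6-inhibited library 1 gave -1.77 with an edgeR adjusted p of 0.0307, within a range of 0.0307 to 0.950 over the alternatives.

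RELA, the p65 partner of p50, had 0 and 16 counts in control oocytes and 0 and 28 counts in SIRT6-inhibited oocytes. At 0, 4.50, 0 and 5.83 normalized CPM it was counted in library 2 of each group and at 0 in library 1 of each, so no direction could be read (log2 fold change 0.39, SE 2.89, edgeR adjusted p = 0.992). IKBKB, the kinase that marks IkB for degradation, had 0, 25, 18 and 56 counts, and IKBKG, the scaffold of that kinase, had 0, 24, 9 and 0. Both were at 0 in control library 1, and the groups overlapped. NFKBIA, the inhibitor IkB-alpha, had 76 and 108 counts in control oocytes and 76 and 188 counts in SIRT6-inhibited oocytes, with overlapping groups.

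Counts of 4 members were above 0 in both control libraries and at 0 in both SIRT6-inhibited libraries, which was 2.09% of members against 2.12% of all symbols. This pattern was picked after the values were seen, and its reverse, 0 in both control libraries and counts in both SIRT6-inhibited libraries, held for 0 members and for 0.137% of all symbols. NFKBIZ, a nuclear IkB protein induced by Toll-like receptor signals, had 16 and 13 counts in control oocytes and was at least 4.57-fold lower in SIRT6-inhibited oocytes against a floor of 3 counts per library (edgeR adjusted p = 0.573). TNFAIP3, the ubiquitin-editing inhibitor A20 and itself an NF-kB target, had 13 and 5 counts in control oocytes and was at least 2.71-fold lower by the same floor, or 1.81-fold from control library 2 alone. PTGS2, the inducible cyclooxygenase COX-2 of prostaglandin synthesis, had 22 and 12 counts in control oocytes, or 4.75 and 3.38 normalized CPM, and was at least 5.22-fold lower in SIRT6-inhibited oocytes (edgeR adjusted p = 0.570). The span of PTGS2 overlaps that of PLA2G4A in RefSeq. IL4R, the receptor chain for IL-4 and IL-13, had 35 and 8 counts in control oocytes and was at least 6.30-fold lower, or 9.71-fold from control library 1 alone and 2.89-fold from control library 2 alone. NFKBIZ and PTGS2 passed the filter on low counts only through the control libraries, so their tests carry that selection. TNFAIP3 and IL4R were too low to be tested, and all 4 genes rest on few reads. The prostaglandin E receptor gene PTGER3 had 0, 13, 0 and 0 counts.

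PTGS2 and TNFAIP6 are also known from expanding cumulus cells, whose markers were measured in the same libraries. Of 21 cumulus and granulosa markers 19 were listed, and AMH, AMHR2, FSHR, KRT8, LHCGR and TNFAIP6 were at 0 in every library. The list summed to 197.8 and 220.1 normalized CPM in control oocytes and 106.6 and 209.9 in SIRT6-inhibited oocytes, so SIRT6-inhibited library 1 was the lowest. VCAN led the list at 82.7, 137, 38.8 and 142 normalized CPM, the larger part of the sum in SIRT6-inhibited library 2. INHBA (34.8, 26.7, 19.3 and 21.2) and SERPINE2 (40.2, 30.7, 21.1 and 7.08) were lower in both SIRT6-inhibited libraries. CYP11A1 (0, 2.53, 4.04 and 11.7) was higher in both, and the groups overlapped for VCAN, FST, GJA1 and STAR. Of the 7 tested genes of this list 6 had lower and 1 had higher fitted levels in SIRT6-inhibited oocytes. The number at an unadjusted p-value under 0.05 was 0 in edgeR, 0 in DESeq2 and 1 in limma-voom (SERPINE2), where 9.68% of all tested genes had such a p-value. The part of cumulus cells in the lower counts of NFKB1, FOS, JUN and PTGS2 was not tested. In bulk samples, fewer cells of a type and less RNA per cell cannot be told apart.

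Of the AP-1 subunits, FOS and JUN were lower in SIRT6-inhibited oocytes. FOS, an immediate early gene induced within minutes of many stimuli, had 77 and 105 counts in control oocytes and 0 and 6 counts in SIRT6-inhibited oocytes. Its normalized CPM was 16.6 and 29.6 in control oocytes and 0 and 1.25 in SIRT6-inhibited oocytes. The groups were far apart, with a log2 fold change of -5.06 (SE 1.66, edgeR adjusted p = 0.487). FOS passed the filter on low counts only through the control libraries, where it is high, so a difference was built into its selection and its calls support nothing further. The DESeq2 adjusted p was 0.0391 and the edgeR adjusted p without SIRT6-inhibited library 2 was 0.00855, within a range of 0.00855 to 0.960 over the alternatives, and no unadjusted p-value under 0.05 was left without control library 2 or in limma-voom (limma adjusted p = 0.606). On leaving out a library the log2 fold change of FOS ran from -4.18 (without SIRT6-inhibited library 1) to -9.46 (without SIRT6-inhibited library 2), the latter a fitted value against a library at 0 and no bound.

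JUN, the partner of FOS, had 733 and 614 counts in control oocytes and 344 and 483 counts in SIRT6-inhibited oocytes. Its normalized CPM was 158 and 173 (mean 166, SD 10.3, n = 2) in control oocytes and 107 and 101 (mean 104, SD 4.44, n = 2) in SIRT6-inhibited oocytes. Both SIRT6-inhibited libraries lay below both controls, and the libraries within a group were close (log2 fold change -0.67, SE 0.23, edgeR adjusted p = 0.496). FOSL2, a FOS-related subunit, had 41, 18, 17 and 25 counts and overlapping groups. RefSeq places FOS on chromosome 7 from 98449508 to 98451971 and JUN on chromosome 6 from 153686425 to 153687635, with no overlapping gene at either.

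TNFAIP8, a protein of phospholipid binding and cell survival whose name records its induction by TNF, had 1867 and 1578 counts in control oocytes and 1108 and 1430 counts in SIRT6-inhibited oocytes. Normalized CPM was 403 and 444 in control oocytes and 344 and 298 in SIRT6-inhibited oocytes, so the groups did not overlap. The log2 fold change was -0.40 (SE 0.17, edgeR adjusted p = 0.546). Among the 5 called members, leaving aside FOS, whose calls carry its selection, TNFAIP8 had the weakest call. Its unadjusted p-value was under 0.05 in 5 of 13 alternatives. For comparison it was 12 of 13 for NFKB1 and SOCS1 and 9 of 13 for JUN. It lies on chromosome 2 from 123152349 to 123285154 in RefSeq.

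**Figure D4:**
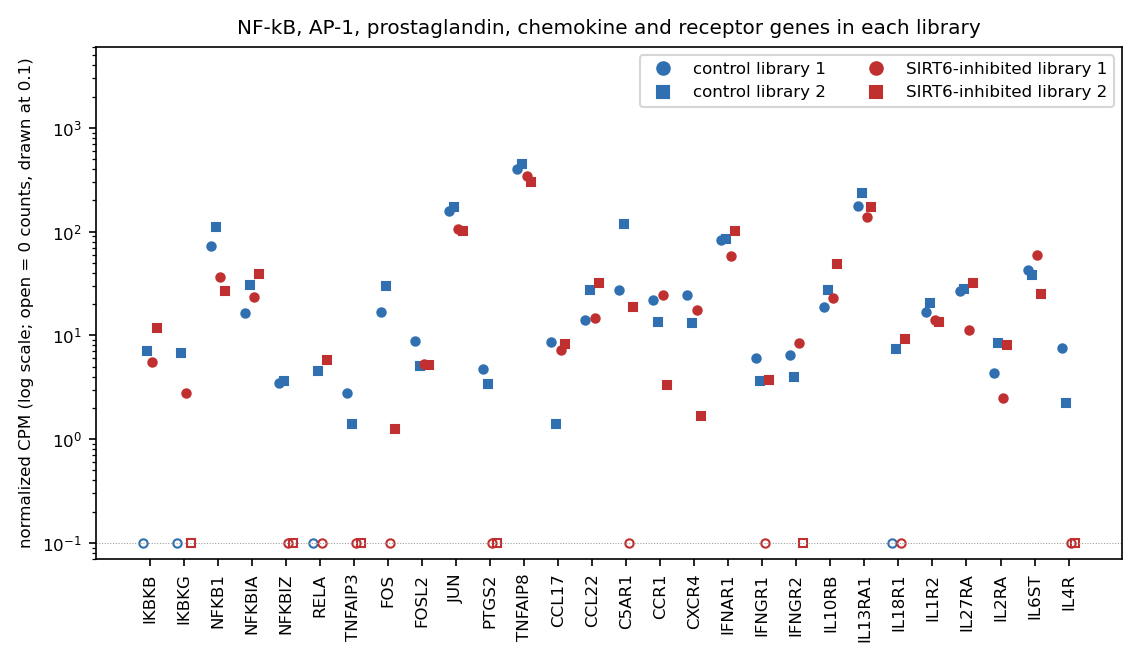
Normalized CPM (log scale) of NF-kB, AP-1, prostaglandin, TNF-induced, chemokine and receptor genes in control library 1 (blue circle) and 2 (blue square) and SIRT6-inhibited library 1 (red circle) and 2 (red square), with open symbols at 0.1 for 0 counts; TNFAIP3 and IL4R, which were too low to test, are shown too. Both red symbols of NFKB1, FOS, JUN and TNFAIP8 lie below both blue ones, and NFKBIZ, TNFAIP3, PTGS2 and IL4R are open in both SIRT6-inhibited libraries.

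Transcripts of receptors for several cytokines were counted. IL13RA1, a receptor chain for IL-13, had 815 and 843 counts in control oocytes and 448 and 831 counts in SIRT6-inhibited oocytes. At 176, 237, 139 and 173 normalized CPM both SIRT6-inhibited libraries were below the controls, by little for library 2 (log2 fold change -0.40, SE 0.25, edgeR adjusted p = 0.744). It was -0.61 without control library 1, -0.18 without control library 2 and -0.26 without SIRT6-inhibited library 1. IFNAR1, a chain of the type I interferon receptor, had 381, 302, 186 and 488 counts, while its partner chain IFNAR2 was silent. For the interferon gamma receptor, IFNGR1 had 28, 13, 0 and 18 counts and IFNGR2 had 30, 14, 27 and 0. IL10RB, a chain shared by IL-10 and type III interferon receptors, had 87, 98, 74 and 235 counts. The groups overlapped for these interferon and IL-10 receptor genes.

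The decoy receptor for IL-1, IL1R2, had 78, 72, 45 and 65 counts and was lower in both SIRT6-inhibited libraries after normalization. IL27RA had 123, 99, 36 and 154 counts, and IL2RA had 20, 30, 8 and 39. IL18R1 had 0, 26, 0 and 44 counts, present in library 2 of each group only. Of the 10 tested interleukin and interferon receptors, 7 had lower and 3 higher fitted levels in SIRT6-inhibited oocytes, with 0 at an unadjusted p-value under 0.05 in edgeR, DESeq2 or limma-voom.

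C5AR1, the receptor for the complement fragment C5a, varied strongly between libraries. It had 126 and 421 counts in control oocytes and 0 and 91 counts in SIRT6-inhibited oocytes, or 27.2, 119, 0 and 19.0 normalized CPM. Both SIRT6-inhibited libraries lay below both controls, but the libraries within each group were far apart (log2 fold change -2.91, SE 1.53, edgeR adjusted p = 0.635). With all 4 libraries kept, the adjusted p was 0.00147 in edgeR without the filter on low counts and 0.989 in DESeq2. The log2 fold change was -1.52 without control library 2, -1.94 without SIRT6-inhibited library 1 and -11.11 without SIRT6-inhibited library 2. The last is a fitted value against a lone library at 0 and no bound. In that fit C5AR1 passed the filter only through the control libraries, where it is high. A difference was thus built into its selection, and its call there supports nothing further. RefSeq places C5AR1 on chromosome 6 from 53097162 to 53111563. The chemokine receptor CXCR4 had 114, 47, 57 and 8 counts, and CCR1 had 102, 48, 78 and 16. All 4 tested genes of this role had negative log2 fold changes, with overlapping groups for CXCR4 and CCR1.

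Of the chemokines, CCL22 and CCL17, both ligands of CCR4, were tested. CCL22 had 65 and 98 counts in control oocytes and 47 and 153 counts in SIRT6-inhibited oocytes, or 14.0, 27.6, 14.6 and 31.9 normalized CPM (log2 fold change 0.16, SE 0.80, edgeR adjusted p = 0.992). CCL17 had 40, 5, 23 and 40 counts, and its span overlaps CIAPIN1. The groups overlapped for both genes.

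Among Toll-like receptors, the RNA sensors TLR7 and TLR8 had the most reads, without correction for transcript length. TLR7 had 247 and 226 counts in control oocytes and 214 and 208 counts in SIRT6-inhibited oocytes, or 53.3, 63.6, 66.5 and 43.3 normalized CPM. The groups overlapped (log2 fold change -0.09, SE 0.40, edgeR adjusted p = 0.992). TLR8 had 39, 146, 61 and 158 counts, and in RefSeq TLR7 lies within the span of TLR8, so their reads may be shared. TLR1, a partner of TLR2 in sensing lipopeptides, had 12, 1, 34 and 26 counts and was higher in both SIRT6-inhibited libraries, while TLR2 was silent. MYD88, the adaptor of most Toll-like receptors, had 60, 26, 40 and 111 counts with overlapping groups, and its span overlaps ACAA1. In all, 21 of the 56 tested members overlap another gene by span, and their counts are uncertain to that extent.

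**Figure D5:**
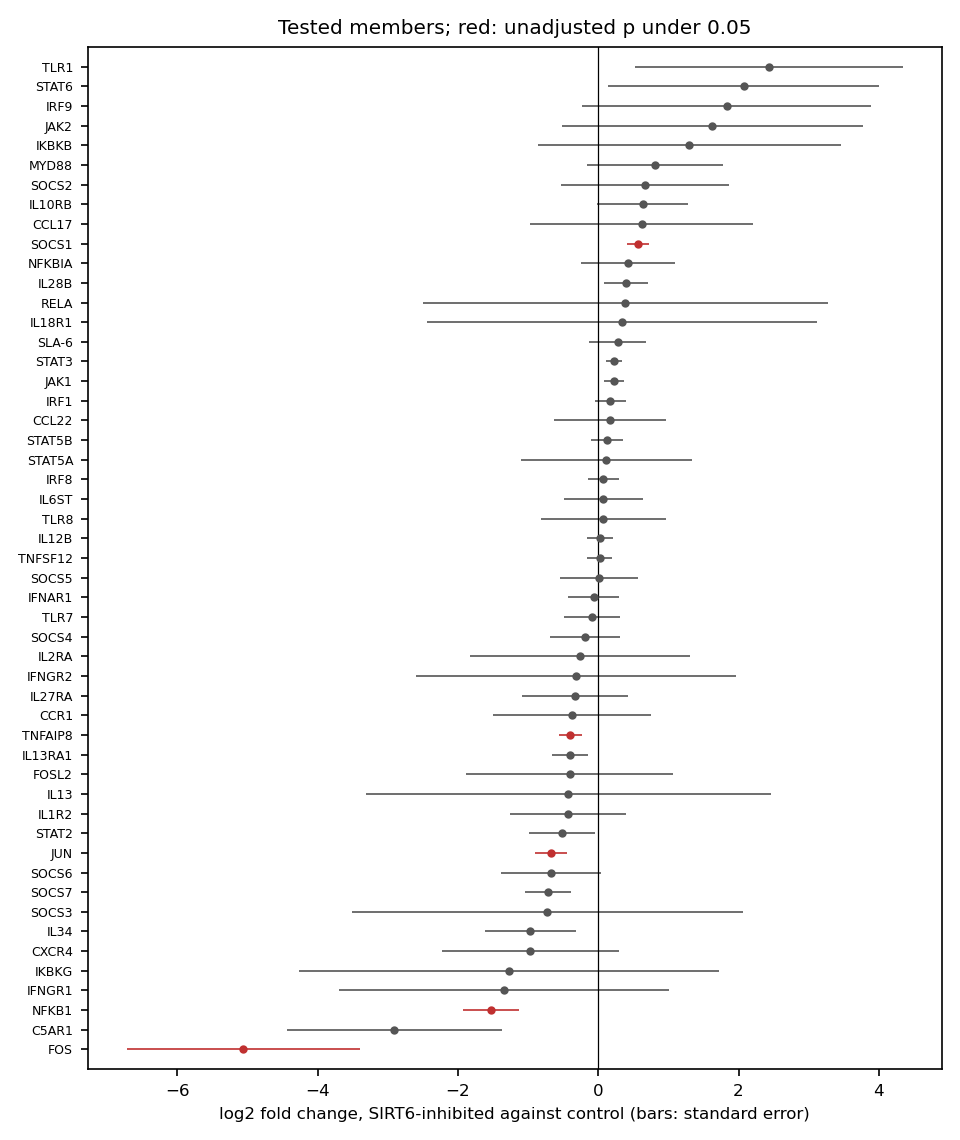
Log2 fold change of SIRT6-inhibited against control oocytes (horizontal axis, bars 1 standard error) for the tested members reported here that were counted in both groups, ordered by size, with red for an unadjusted p-value under 0.05 in edgeR. NFKB1, FOS, JUN and TNFAIP8 are the red genes below 0 and SOCS1 is the red gene above 0, and members with the widest bars are those with few counts.

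Genes that act with these members were taken from 5 pathway lists. Of NF-kB and innate signalling adaptors 19 were listed, 2 were silent and 16 were tested, 7 lower and 9 higher in SIRT6-inhibited oocytes, with a median log2 fold change of 0.01. XIAP, an inhibitor of apoptosis that also takes part in NF-kB signalling, was the adaptor with an unadjusted p-value under 0.05. It stood at 127 and 92.3 normalized CPM in control oocytes and 49.7 and 56.0 in SIRT6-inhibited oocytes, with both SIRT6-inhibited libraries below the controls (log2 fold change -1.05, SE 0.32, edgeR adjusted p = 0.469). Of nucleic acid and inflammasome sensors 16 were listed, 7 were silent and 8 were tested, 2 lower and 6 higher, with a median of 0.43 and 0 at an unadjusted p-value under 0.05 in edgeR, DESeq2 or limma-voom.

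Interferon-stimulated and antigen presentation genes were 23 listed, 13 silent and 7 tested, 4 lower and 3 higher, with a median of -0.13. PDIA3, a protein disulphide isomerase that helps load class I molecules, had 1215 and 1554 counts in control oocytes and 554 and 557 counts in SIRT6-inhibited oocytes. Its normalized CPM of 262, 437, 172 and 116 put both SIRT6-inhibited libraries below the controls (log2 fold change -1.28, SE 0.32, edgeR adjusted p = 0.460). CANX, the chaperone calnexin, had 855 and 950 counts in control oocytes and 449 and 666 counts in SIRT6-inhibited oocytes, also below the controls in both after normalization (log2 fold change -0.70, SE 0.25, edgeR adjusted p = 0.505). PDIA3 and CANX fold glycoproteins in general and are not particular to immunity, and the interferon-induced genes ISG15, ISG20, OAS1, OASL, RSAD2, MX2 and BST2 were silent. In contrast MX1, an interferon-induced GTPase picked after its values were seen, stood at 1189 and 1101 normalized CPM in control oocytes and 1223 and 1152 in SIRT6-inhibited oocytes, with overlapping groups.

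Cytokine receptor signalling partners were 12 listed, 4 silent and 7 tested, 7 lower and 0 higher in SIRT6-inhibited oocytes, where 52.8% of all tested genes were lower. The groups overlapped for GHR, GRB2 and PTPN1. CISH (80, 32, 21 and 6 counts), EPOR (27, 20, 0 and 15), LIF and TYK2 were lower in both SIRT6-inhibited libraries after normalization. Such a pattern held for 22.2% of all tested genes, and the difference from that share was not tested. TYK2, at 101, 31, 9 and 0 counts, reached 10 counts only in the control libraries. The list had a median of -0.43 and 0 genes at an unadjusted p-value under 0.05 in edgeR, DESeq2 or limma-voom. AP-1 partners and upstream kinases were 5 listed, 1 silent and 3 tested, 2 lower and 1 higher, with a median of -0.02 and 0 at that threshold by the same tools. Over the 5 lists, adjusted p-values under 0.05 numbered 0 in edgeR and limma-voom and 1 in DESeq2 (PDIA3, 2.44% of the 41 tested list genes against 1.55% of all tested genes). At an unadjusted p-value under 0.05 in edgeR there were 3 list genes, XIAP, PDIA3 and CANX, which is 7.32% against 9.05% of all tested genes.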

How the data were processed

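The authors deposited a count table with the number of reads on each gene symbol in each of the 4 libraries, as whole numbers without normalization, and 0 of its value columns were left unused. The sample labels name Smart-seq2 amplification, which the study's methods, describing kit extraction of RNA and random-primed libraries, do not mention. The submitters' processing notes name TopHat2 2.0.13, Cufflinks 2.2.1, Cuffnorm and Cuffdiff with the builds mm10 and susScr11, without saying which made the counts. The counting tool and strand setting are not stated in the sources used here. The table carries no coordinates, and positions are those of RefSeq on Sscrofa11.1, which is susScr11, where all 191 members matched by symbol.

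Counts were analysed with R 4.3.3 and edgeR 4.0.16. The filterByExpr filter (at least 10 counts in the libraries it requires, at least 15 in total) kept 2387 genes, and TMM factors were 0.997, 1.04, 0.994 and 0.966. Groups, taken from the sample labels, were compared with its quasi-likelihood test, and p-values were adjusted by the Benjamini-Hochberg method over all kept genes. The standard error is the size of the log2 fold change divided by the square root of the F statistic. The fit was also run on simulated data with 200 changed genes, the outcome of which is not reported here. Members with fewer counts than the filter needs are called trace, and those with 0 counts in all libraries silent.

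Every tested member was named with its counts, except a few that are not reported here. Normalized CPM, fold change and adjusted p were given for members with an unadjusted p-value under 0.05, for NFKB1, RELA, IL6ST, STAT3 and PTGS2 and for the member with the highest normalized CPM in each role. Trace members were given by count and range, silent ones by role, and pathway genes were named at an unadjusted p-value under 0.05. Other named pathway, trace and SOCS7 values were chosen after they were seen. Members and lists were chosen with earlier results of these data known, and roles were assigned by gene nomenclature after the counts were seen.

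Alternatives were RLE and upper-quartile factors, library totals, no filter, a filter of 10 counts in each library, a replicate block, DESeq2 1.42.0, limma-voom (limma 3.58.1), leaving out each library, a silent threshold of 3 counts, and leaving out the 4 symbols matched by spelling. The replicate numbers come from the sample labels, and nothing in the sources ties libraries that share a number.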

Additional observations from a re-analysis of the deposited data

How the results depend on the processing

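The number of genes with an adjusted p under 0.05 went from 0 to 43 without a filter, 2 with at least 10 counts in every library, 37 with DESeq2 and 0 to 77 on leaving out a library, and that of members from 0 to 1 without a filter (C5AR1), 1 with DESeq2 (FOS) and 0 to 2 on leaving out a library. With the replicate block 6 genes and 1 member (C5AR1, adjusted p = 0.0266) passed, and same-numbered libraries had a correlation of deviations of -0.117. With the numbers crossed, an alternative chosen after seeing the data, 2 genes and 0 members passed. At an unadjusted p-value under 0.05, leaving out a library gave 111 to 302 genes (216 with all) and 1 to 7 members (5 with all). The member median was -0.39 without a filter and -0.23 to -0.000946 on leaving out a library, and the silent share was 54.5% to 60.2%. The cause was not tested. Of the single-gene alternatives, 201 kept direction and side of an adjusted p of 0.05, 2 kept direction with no adjusted p given by DESeq2 (PTGS2 and RELA), 7 passed it and 19 changed sign. IL6ST was -0.053 with the replicate block, -0.055 with crossed numbers and -0.20 with limma-voom, and IL12B and TNFSF12 were -0.034 and -0.038 with library totals. On leaving out a library, FOS ran from -9.46 to -4.18, C5AR1 from -11.11 to -1.52, STAT3 from 0.12 to 0.32, IL28B from 0.13 to 0.62, IL13RA1 from -0.61 to -0.18, CCL22 from -0.51 to 0.72, IL12B from -0.18 to 0.24, IL6ST from -0.69 to 0.57, IRF8 from -0.13 to 0.25, RELA from -6.11 to 6.64, SLA-6 from -0.18 to 0.94, TLR7 from -0.44 to 0.18 and TNFSF12 from -0.18 to 0.23. Each such fit leaves a lone library that is assumed to vary like the other group. Without SIRT6-inhibited library 2, C5AR1 and FOS were kept by the filter only through the control libraries, so their calls there carry that selection. Depth limits genes under 3 counts, and a direction for members at 0 in a library of each group could not be read.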
